A study of Mus musculus with 20 samples.

Results

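The 10 genes described here encode the coat of the lipid droplet and the enzymes that load and empty it: the perilipins Plin1, Plin2, Plin3 and Plin4, the droplet fusion protein gene Cidec, the lipases Pnpla2, Lipe and Mgll, and the acyltransferases Dgat1 and Dgat2. They were taken by symbol from a table of 27179 genes, and all 10 were found. All 10 were among the 13057 genes tested, those whose mean over the 20 libraries reached 10 normalized reads. RNA-seq had been run on PDGFRb+ cells sorted by flow cytometry from the inguinal white fat, the subcutaneous depot of the groin, of male C57BL/6 mice, and each library held either DPP4+ or DPP4- adipocyte progenitor cells (DPP4 is a peptidase on the cell surface). The 4 groups, of 5 libraries each, were DPP4+ cells from mice kept at 22 °C, DPP4+ cells from mice held at 6 °C for 24 h, and DPP4- cells from mice at 22 °C and at 6 °C for 24 h. No genotype beyond the strain, no age, and no transgene or drug is named for any group. Whether a library came from 1 mouse or from several is not given in the sources used here, so the p-values measure the spread between these libraries only.

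Fat is stored in cells as triglyceride inside droplets that are wrapped in a single layer of phospholipid and a coat of proteins. Perilipins sit in that coat and govern the access of lipases, and DGAT enzymes add the last fatty acid that turns diglyceride into triglyceride. Breakdown runs in steps from triglyceride to diglyceride to monoglyceride to glycerol, and in fat tissue in the cold it is driven by noradrenaline and cyclic AMP. Progenitor cells hold few droplets, whereas PLIN1, CIDEC and the hormone-sensitive lipase LIPE are known above all from mature adipocytes.

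The deposited values are read counts divided by 1 factor per library and are called normalized reads below. A library held 8.49 to 18.8 M reads (1 M is 1e+06). Dpp4 had means of 8546 and 10035 normalized reads in DPP4+ cells at 22 and 6 °C and of 67.9 and 61.3 in DPP4- cells, and Pdgfrb had means of 1505 to 4126 in the 4 groups. Of the markers of mature adipocytes, the leptin gene Lep had 15 reads over all libraries, with reads in 11 of 20, whereas Adipoq, which encodes adiponectin, ranged from 4.05 to 406 normalized reads. The 8 lymphocyte markers summed to at most 64.1 normalized reads in any library, and the 12 macrophage markers to 180 to 611. In bulk libraries fewer cells of a type cannot be told apart from less RNA per cell. Differences were tested with limma on log2(value + 1) and called at an adjusted p below 0.05.

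After 24 h at 6 °C the change differed between the 2 populations for 6 of the 10 genes. In DPP4+ cells Dgat1 was 7.37-fold higher in the cold and Mgll 1.56-fold higher, while Plin3 was 1.67-fold lower and Pnpla2 1.29-fold lower. DPP4- cells had Plin1 3.62-fold higher and Dgat2 1.58-fold higher, with Plin3 1.25-fold lower. In DPP4+ cells 4 of 10 genes were called, 2 higher and 2 lower, beside 46.1% of all genes tested (23.5% higher and 22.6% lower). In DPP4- cells 3 of 10 were called, 2 higher and 1 lower, beside 5.22% of all genes (1.98% higher and 3.23% lower). At an unadjusted p below 0.05 limma had 7 higher and 1 lower. The share of all genes at an unadjusted p below 0.05 was not counted, here or for the lists below. With library totals set equal in place of the deposited scaling, 6 were higher and 0 lower in DPP4- cells, and 915 and 227 of all genes. The median log2 difference of the 10 genes was -0.27 in DPP4+ cells and 0.32 in DPP4- cells, where the median over all genes was 0.01 and 0.00. The effect of cold itself differed between the populations for 6 of 10 genes, beside 33.2% of all genes: it was higher in DPP4+ cells for Dgat1, and lower for Plin1, Plin3, Cidec, Pnpla2 and Lipe. The groups of 5 libraries did not overlap for 5 of 10 genes in DPP4+ cells, beside 38.4% of all genes, and for 2 of 10 in DPP4- cells, beside 4.87%.

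**Figure D1:**
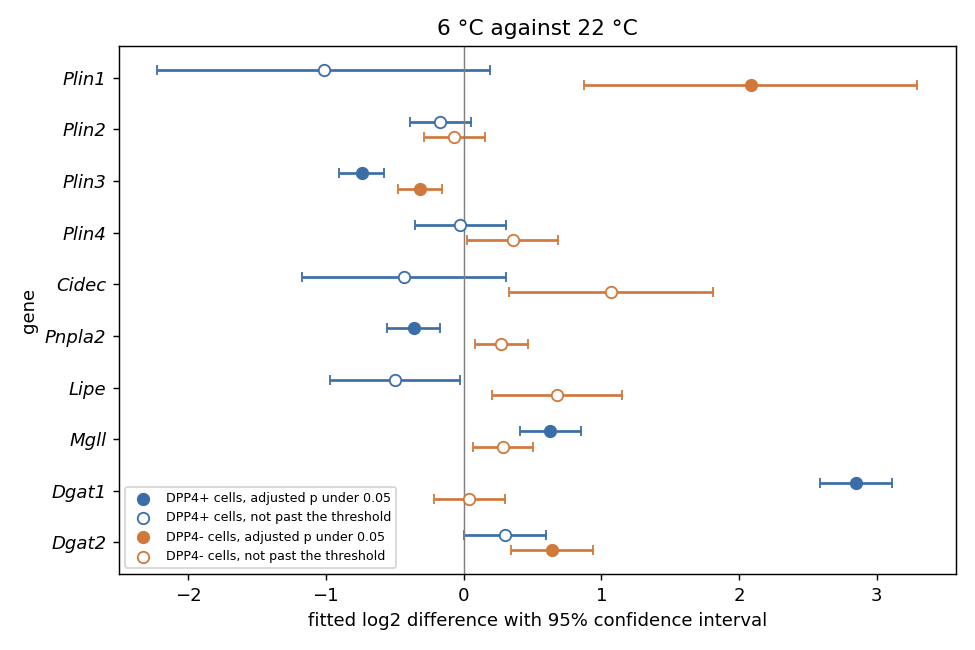
Log2 difference of cold against 22 °C on the log2(value + 1) scale (horizontal axis) for each of the 10 genes, in DPP4+ and DPP4- cells. Points are limma estimates over 5 libraries a group (filled where called, open where not) and lines are 95% intervals. For DPP4+ and DPP4- cells in that order, Dgat1 stands at 2.85 and 0.04, and Plin1 at -1.02 and 2.09.

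PLIN2 coats droplets in most cell types and PLIN4 covers small new droplets in adipocytes. These 2 perilipin genes had the largest excess in DPP4- cells of the 10, and the cold comparison called neither in either population. Plin2 (chr4:86648386-86670060, GRCm38, minus strand, 13 merged exons) had 486, 453, 387, 465 and 437 normalized reads in the DPP4+ libraries at 22 °C and 2358, 3007, 2379, 2633 and 2603 in the DPP4- libraries. The 2 populations did not overlap, and Plin2 was 5.82-fold lower in DPP4+ cells at 22 °C (log2 difference -2.54, SE 0.11, limma adjusted p = 2.26e-15). In the cold the values were 398, 408, 386, 405 and 379 in DPP4+ cells and 2201, 3211, 2203, 3019 and 1949 in DPP4- cells, a 6.36-fold gap (adjusted p = 9.62e-16, limma). The difference between cold and 22 °C was -0.17 on the log2 scale in DPP4+ cells (95% interval -0.39 to 0.05, limma adjusted p = 0.202) and -0.07 in DPP4- cells (-0.29 to 0.15, limma adjusted p = 0.766).

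Plin4 (chr17:56100591-56109803, minus strand) showed the widest gap between the populations among the 10 genes. At 22 °C it had 243, 227, 190, 215 and 196 normalized reads in the DPP4+ libraries and 2059, 3776, 3099, 2697 and 3359 in the DPP4- libraries. At 6 °C it had 241, 213, 223, 229 and 155 in DPP4+ cells and 5084, 4280, 3463, 3309 and 3019 in DPP4- cells. Every DPP4- library lay above every DPP4+ library, by 14.0-fold in the means at 22 °C (log2 difference -3.78, SE 0.16, limma adjusted p = 3.77e-14) and by 18.0-fold at 6 °C (-4.16, SE 0.16, limma adjusted p = 7.56e-15). The cold difference was -0.02 in DPP4+ cells (95% interval -0.35 to 0.31) and 0.36 in DPP4- cells (0.03 to 0.69, limma adjusted p = 0.203). Exons of Plin4 share 17 bases with those of Hdgfl2 on the other strand. Hdgfl2 had means of 547, 493, 705 and 746 normalized reads in DPP4+ cells at 22 and 6 °C and in DPP4- cells at 22 and 6 °C, and the strand of counting is not stated.

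The RefSeq promoter table for GRCm38.p6 held entries for 8 of the 10 genes, in 11 windows of the 250 bases before a start. Dgat1 and Dgat2 had no entry. Shown here are Plin2 and Plin4, the pair higher in DPP4- cells, and, for contrast, the first start of Mgll, which was higher in DPP4+ cells. The windows are chr4:86670060-86670309 (minus strand), chr17:56109783-56110032 (minus strand) and chr6:88724162-88724411 (plus strand), written 5′ to 3′, with capitals marking AGGTCA (read on the other strand as TGACCT) or CACGTG.
Plin2: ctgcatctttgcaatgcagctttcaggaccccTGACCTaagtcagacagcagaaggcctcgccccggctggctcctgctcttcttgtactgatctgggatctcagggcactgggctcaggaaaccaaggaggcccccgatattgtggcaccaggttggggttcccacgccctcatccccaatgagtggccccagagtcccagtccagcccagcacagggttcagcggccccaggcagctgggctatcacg
Plin4: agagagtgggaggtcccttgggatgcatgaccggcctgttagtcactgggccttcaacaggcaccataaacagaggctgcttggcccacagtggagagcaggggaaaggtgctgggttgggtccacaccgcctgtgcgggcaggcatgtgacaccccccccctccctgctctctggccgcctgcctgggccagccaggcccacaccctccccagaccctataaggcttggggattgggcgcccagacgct
Mgll: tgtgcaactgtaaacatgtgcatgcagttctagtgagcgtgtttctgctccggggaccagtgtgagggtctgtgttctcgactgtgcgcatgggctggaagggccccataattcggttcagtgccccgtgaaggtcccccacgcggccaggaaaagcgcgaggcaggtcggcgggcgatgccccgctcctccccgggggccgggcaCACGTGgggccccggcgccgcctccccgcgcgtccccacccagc
AGGTCA, the core letters bound by nuclear receptors such as the PPARs, was found in the Plin2 window, starting 218 bases before the start, and in no other of the 11 windows, against 14.0% of all 32851 windows. CACGTG, the E-box letters, stood 44 bases before the Mgll start and in 1 window of Lipe, 2 of 11 windows against 6.02% of all. The cyclic AMP response element letters TGACGTCA, and the shorter TGACG, stood in 0 of 11 windows, against 1.55% and 17.8% of all. GGGCGG was found in 4 of 11 windows, against 32.7% of all. Both strands were searched, TGACGTCA contains TGACG, and a match describes letters in the window only. The Plin2, Plin4 and Mgll windows were 61.6%, 65.2% and 68% G and C, and the median of all windows was 52.4%.

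PLIN3 is the perilipin that moves between the cytosol and droplets as they form. Plin3 (chr17:56277476-56292873, minus strand) fell in the cold in both populations. In DPP4+ cells it went from 871, 852, 777, 750 and 750 normalized reads at 22 °C to 434, 480, 459, 483 and 538 at 6 °C, and the lowest library at 22 °C was above the highest in the cold. The log2 difference was -0.74 (SE 0.08, limma adjusted p = 3.68e-08). In DPP4- cells it went from 600, 674, 595, 540 and 514 to 464, 511, 414, 439 and 519, with 1 cold library above the lowest library at 22 °C. That difference was -0.32 (SE 0.08, limma adjusted p = 0.0193), and it missed the threshold without DPP4- replicate 3 of the cold or without DPP4- replicate 2 of 22 °C (range over single libraries left out, -0.36 to -0.26). The fall was larger in DPP4+ cells by 0.42 on the log2 scale (SE 0.11, limma adjusted p = 0.00457). At 22 °C DPP4+ cells had 1.37-fold more Plin3 (limma adjusted p = 1.35e-05), and at 6 °C the log2 difference was 0.03 (95% interval -0.13 to 0.19).

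PLIN1 is the adipocyte perilipin that holds lipases off the droplet until it is phosphorylated. Plin1 (chr7:79720218-79732903, minus strand) had opposite differences in the 2 populations, and in DPP4- cells it varied most between libraries of the 10 genes. In the DPP4+ libraries replicates 1 to 5 had 389, 329, 289, 347 and 357 normalized reads at 22 °C and 218, 165, 185, 186 and 107 at 6 °C. The DPP4- libraries had 2.70, 58.5, 36.5, 33.8 and 47.6 at 22 °C and 59.0, 68.2, 107, 205 and 209 at 6 °C. The DPP4+ groups did not overlap, nor did the DPP4- groups, although replicate 2 at 22 °C and replicate 1 at 6 °C of DPP4- cells lay next to each other. The lowest library, DPP4- replicate 1 at 22 °C, rested on 2 reads, and the other DPP4- libraries at 22 °C on 22 to 39. Within a group the highest library exceeded the lowest 1.35-fold and 2.04-fold in DPP4+ cells at 22 and 6 °C and 21.7-fold and 3.54-fold in DPP4- cells.

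In DPP4- cells Plin1 rose in the cold by 2.09 on the log2 scale (SE 0.57, limma adjusted p = 0.0423), from a mean of 35.8 ± 20.96 to 130 ± 73.0 (SD, n = 5). Without the library that rested on 2 reads the rise was 1.37 (limma adjusted p = 0.0235). The call was lost when cold replicate 3, 4 or 5 or 22 °C replicate 3 or 4 of DPP4- cells was left out, with log2 differences of 1.37 to 2.37 over all single libraries left out. It was also lost with the DPP4- libraries fitted alone (limma adjusted p = 0.242), with quantile scaling (0.0509) and with no filter (0.0800). In DPP4+ cells the mean was 342 ± 37.1 at 22 °C and 172 ± 41.2 at 6 °C (SD, n = 5), 1.99-fold lower. The model gave a log2 difference of -1.02 with a 95% interval of -2.23 to 0.19 (limma adjusted p = 0.160), in a fit where the 4 groups share 1 variance and the DPP4- libraries spread widely. Fitted on the DPP4+ libraries alone, that difference passed the threshold (limma adjusted p = 0.000158), as it did on whole reads with the edgeR quasi-likelihood test (adjusted p = 0.00783) and DESeq2 (adjusted p = 0.0437). The 2 cold effects differed by -3.10 (SE 0.81, limma adjusted p = 0.00684). DPP4+ cells had 9.55-fold more Plin1 at 22 °C (log2 difference 3.67, SE 0.57, limma adjusted p = 1.49e-05), and 0.56 higher on the log2 scale at 6 °C (95% interval -0.64 to 1.77, limma adjusted p = 0.382). Without the library that rested on 2 reads, the difference of the cold effects was -2.39 (limma adjusted p = 0.000436) and the 22 °C gap 2.95 (limma adjusted p = 1.48e-07).

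**Figure D2:**
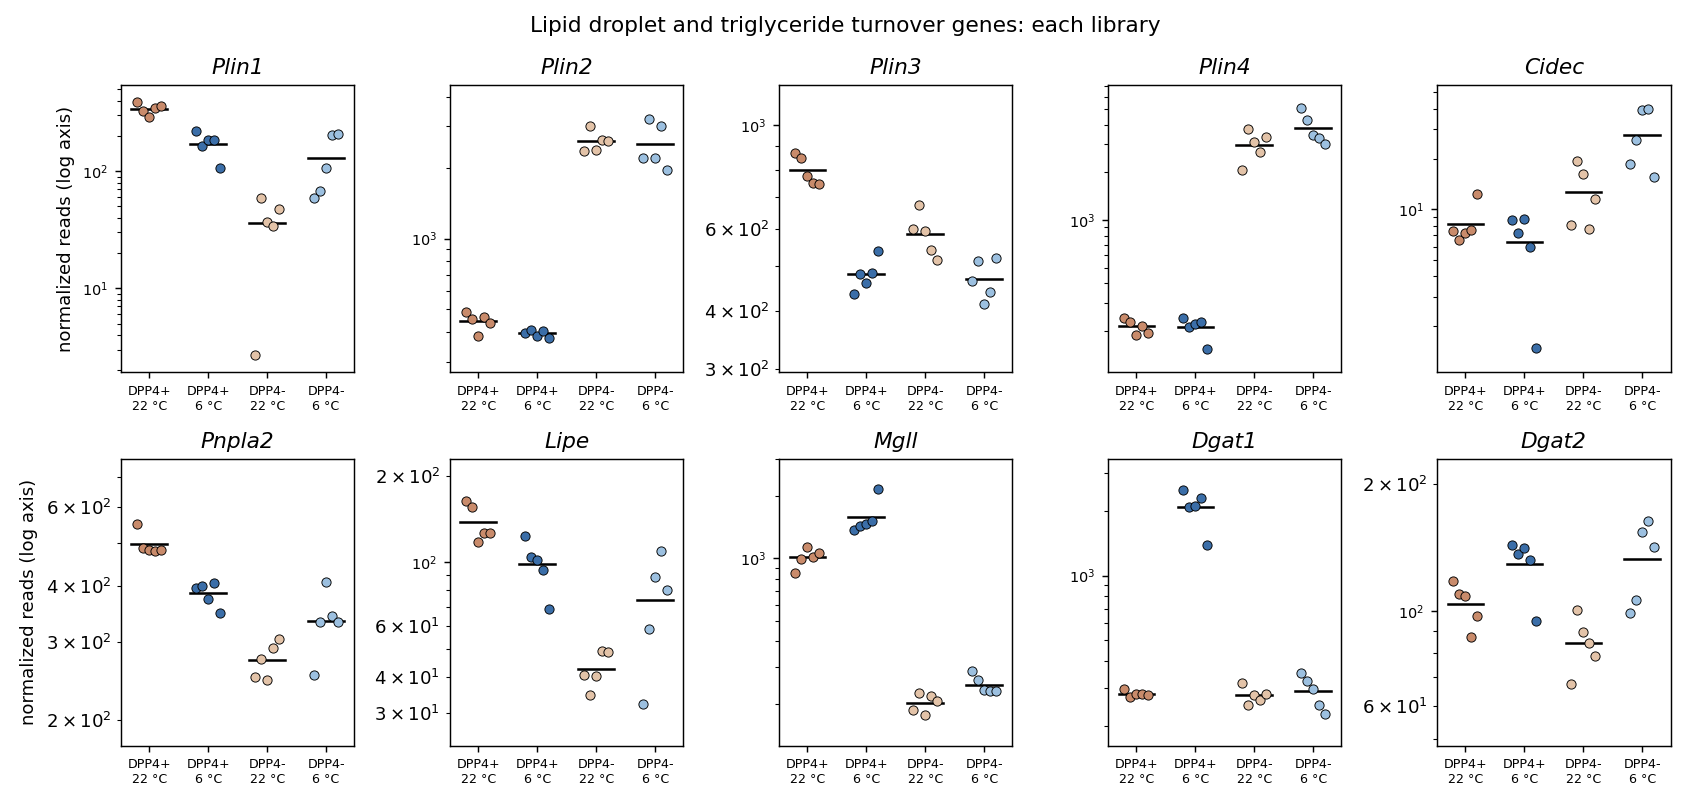
Normalized reads (log axis) of each of the 10 genes in the 20 libraries, by group, with 1 point a library and a bar at the group mean. DPP4- replicate 1 at 22 °C is the lowest Plin1 point, at 2.70, and the Dgat1 points of DPP4+ cells in the cold lie at 1395 to 2498, above all others.

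Many, not all, markers of mature adipocytes differed in the cold in the direction of Plin1. Of 17 tested, 6 rose and 0 fell in the cold in DPP4- cells by limma, beside 1.98% and 3.23% of all genes. At an unadjusted p below 0.05 limma had 10 and 0, and edgeR and DESeq2 each called 6 and 0. Of all genes, edgeR called 225 higher and 390 lower in that comparison, and DESeq2 323 and 580. In DPP4+ cells 3 rose and 9 fell, beside 23.5% and 22.6% of all genes. The cold effect was lower in DPP4+ cells for 12 of 17 and higher for 2, beside 16.4% and 16.8% of all genes. Car3, carbonic anhydrase of fat and muscle, went from a mean of 219 to 721 normalized reads in DPP4- cells (log2 difference 1.86, limma adjusted p = 0.0158) and from 558 to 235 in DPP4+ cells (-1.27, limma adjusted p = 0.0205). Lgals12, a galectin on adipocyte droplets, went from 8.62 to 24.7 in DPP4- cells (limma adjusted p = 0.0083) and from 45.2 to 5.94 in DPP4+ cells (limma adjusted p = 1.14e-07). The fatty acid transporter gene Cd36 rose from 2355 ± 972 to 6045 ± 1266 in DPP4- cells (SD, n = 5, limma adjusted p = 0.00268), and had 193 ± 14.7 and 250 ± 25.5 in DPP4+ cells (limma adjusted p = 0.251). Against the direction of Plin1, the 3 markers that rose in DPP4+ cells were the lipogenic enzyme genes Scd1, from 4309 to 10896, and Fasn, from 2767 to 3986, and Nnat, from 38.3 to 75.4. DPP4- replicate 1 at 22 °C, lowest for Plin1, was also the lowest of its group for most of the 20 markers. Among these were Adipoq (4.05), Car3 (48.6), Cd36 (918) and Cfd (10.8). The only exceptions were Fasn (4725, where replicate 5 had 4150), Scd1 (1123.5, where replicate 5 had 1089), Adrb3, Acvr1c and Lep. DPP4- cold replicates 3, 4 and 5, highest for Plin1, had 776, 986 and 1053 normalized reads of Car3, where replicates 1 and 2 had 405 and 383. Adipoq, Cfd, Slc2a4, Thrsp, Fasn, Scd1, Pck1, Adrb3, Nnat and Lgals12 likewise had replicates 3, 4 and 5 above replicates 1 and 2. The other markers did not: Cd36 was lowest in replicate 4 (4645), Fabp4 highest in replicate 2 (11710), and Aqp7 lowest in replicate 5 (10.7). Lep, Retn, Lpl, Trarg1, Acvr1c and Sncg did not either. The 20 markers summed to 42989 to 56841 normalized reads in DPP4- libraries at 22 °C and to 48837 to 63315 at 6 °C, against 19114 to 21114 and 18390 to 25861 in DPP4+ libraries, sums in which Lpl alone reached 41909 in 1 library. Gene by gene, 9 of the 17 tested were higher and 7 lower in DPP4+ than DPP4- cells at 22 °C (median log2 difference 1.47). At 6 °C 3 were higher and 10 lower (median -1.52). Of all genes, 38.7% and 36.2% were higher and lower at 22 °C, and 38.5% and 35.7% at 6 °C. Adipoq had 22 °C means of 332 and 20.1 in DPP4+ and DPP4- cells and Cfd 648 and 35.9, whereas Lpl had 9683 and 37662. Lep was at 0 in 9 of 20 libraries. The part of such markers in the Plin1 result was not tested.

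CIDEC joins droplets and moves lipid from the smaller to the larger. Cidec (chr6:113424634-113435760, minus strand) was the lowest of the 10 genes, with 2 to 29 reads a library. At 22 °C it had 7.46, 6.55, 7.24, 7.52 and 12.4 normalized reads in DPP4+ cells and 8.10, 19.5, 16.4, 7.68 and 11.6 in DPP4- cells, which overlapped. In the cold it had 8.62, 7.23, 8.74, 5.97 and 1.496 in DPP4+ cells and 18.8, 25.9, 39.1, 39.5 and 15.6 in DPP4- cells, which did not. The DPP4+ cells were therefore 4.33-fold lower in the cold (log2 difference -2.01, SE 0.36, limma adjusted p = 2.18e-05), and at 22 °C the difference was -0.51 (95% interval -1.25 to 0.23). The cold difference was 1.07 in DPP4- cells (0.33 to 1.81, limma adjusted p = 0.0805) and -0.43 in DPP4+ cells (-1.17 to 0.31, limma adjusted p = 0.340). The DPP4- difference passed the threshold with DESeq2 (adjusted p = 0.0398), a pseudocount of 5 (limma adjusted p = 0.0373) and equal totals (limma adjusted p = 0.0481). In DPP4+ cells Cidec varied more between libraries than Plin1, 1.89-fold and 5.84-fold from lowest to highest at 22 and 6 °C. These cold effects differed by -1.50 (SE 0.51, limma adjusted p = 0.0251), and the call was lost without DPP4- cold replicate 3 or without DPP4+ replicate 5 at 22 °C (range -1.68 to -1.14). Its relatives were lower still: Cidea had 25 reads over all libraries and Cideb 35.

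Divided by exon length, the transcripts of the 4 perilipins stood in different proportions in the 2 populations. In DPP4+ cells at 22 °C Plin3 took 47.1 ± 2.12% of the perilipin reads per kb, Plin2 28.3 ± 1.15%, Plin1 16.4 ± 1.15% and Plin4 8.25 ± 0.309% (SD, n = 5). In DPP4- cells at 22 °C Plin2 took 52.3 ± 3.24%, Plin4 36.2 ± 4.06%, Plin3 11.0 ± 1.52% and Plin1 0.518 ± 0.276%. In the cold the Plin1 share was 11.8 ± 2.64% in DPP4+ cells and 1.92 ± 1.23% in DPP4- cells. The Plin1 share in DPP4+ libraries was 15.1 to 17.7% at 22 °C and 7.67 to 14.8% at 6 °C, with no overlap. The Plin2 share in DPP4+ cells moved from 26.8 to 29.9% at 22 °C to 35.5 to 36.9% in the cold. Shares of 1 total move against each other, so a higher share of 1 gene is not a higher level.

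**Figure D3:**
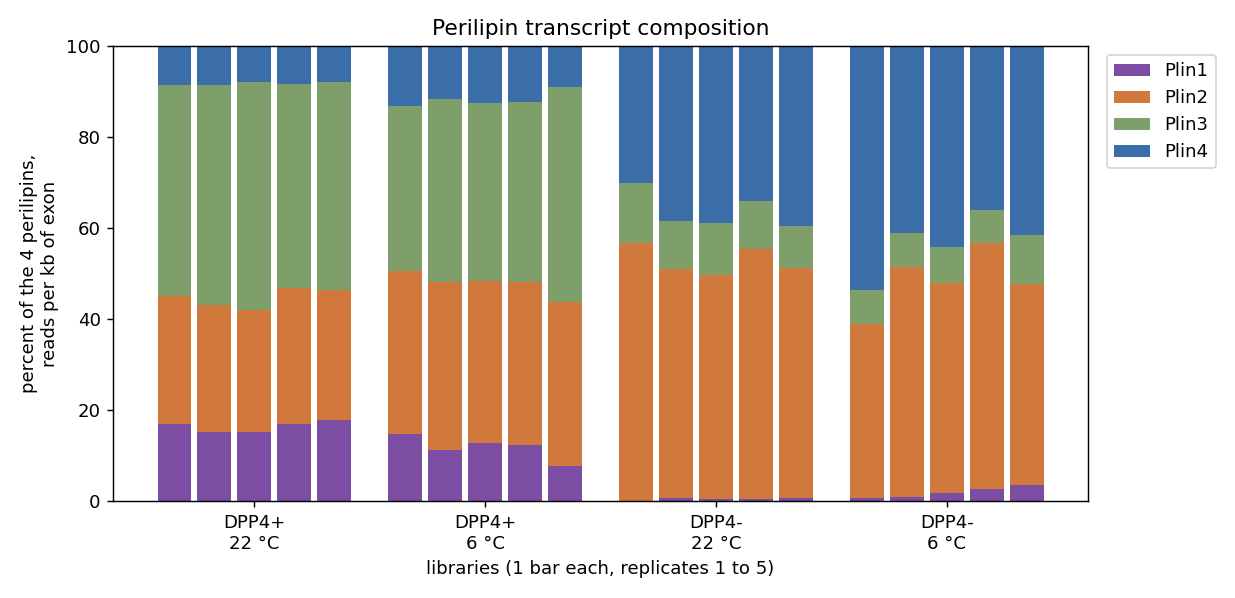
Percent of the summed reads per kb of exon of Plin1, Plin2, Plin3 and Plin4 (vertical axis) in each of the 20 libraries, 1 stacked bar a library, in 4 groups. Plin3 is the largest part in the DPP4+ libraries at 22 °C (a mean of 47.1%), and Plin2 and Plin4 fill most of every DPP4- bar.

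PNPLA2 (adipose triglyceride lipase) takes the first fatty acid from triglyceride. Pnpla2 (chr7:141455198-141460743, plus strand) fell in the cold in DPP4+ cells, from 550, 487, 481, 478 and 481 normalized reads to 395, 400, 374, 407 and 349. The groups did not overlap, and the log2 difference was -0.36 (SE 0.09, limma adjusted p = 0.00233). In DPP4- cells it had 250, 275, 246, 290 and 305 at 22 °C and 252.04, 331, 408, 343 and 332 in the cold, with replicate 1 of the cold inside the range of 22 °C. That difference was 0.27 (95% interval 0.08 to 0.46, limma adjusted p = 0.0816). The cold effect was lower in DPP4+ cells by 0.64 on the log2 scale (log2 difference of the effects -0.64, SE 0.13, limma adjusted p = 0.000544). Pnpla2 was 1.81-fold higher in DPP4+ than DPP4- cells at 22 °C (limma adjusted p = 1.02e-08) and 1.16-fold higher at 6 °C (limma adjusted p = 0.0331). The 6 °C call was lost without DPP4- cold replicate 1 or without DPP4+ cold replicate 1, 2 or 4 (log2 range 0.13 to 0.30), with quantile scaling (limma adjusted p = 0.0771) and with the cold groups fitted alone (limma adjusted p = 0.0700).

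LIPE (hormone-sensitive lipase) cuts diglyceride and is switched on by phosphorylation. Lipe (chr7:25379527-25398710, minus strand) had 164, 156, 117, 127 and 127 normalized reads in DPP4+ cells at 22 °C and 123, 104, 102, 93.8 and 68.8 in the cold. In DPP4- cells it had 40.5, 34.5, 40.3, 49.1 and 48.9 at 22 °C and 32.2, 58.6, 89.1, 109 and 79.8 in the cold, with cold replicate 1 below all libraries at 22 °C. The cold difference was -0.50 in DPP4+ cells (95% interval -0.97 to -0.02, limma adjusted p = 0.0802) and 0.68 in DPP4- cells (0.20 to 1.15, limma adjusted p = 0.0847), and neither was called. The difference between these effects was -1.17 (SE 0.32, limma adjusted p = 0.00746). On whole reads the DPP4+ difference passed the threshold with the edgeR quasi-likelihood test (adjusted p = 0.0245) and DESeq2 (adjusted p = 0.0247), and with the DPP4+ libraries fitted alone (limma adjusted p = 0.0100). The DPP4- difference passed it with DESeq2 (adjusted p = 0.0177) and with library totals set equal (limma adjusted p = 0.0440). Lipe was 3.23-fold higher in DPP4+ than DPP4- cells at 22 °C, with no overlap (log2 difference 1.67, SE 0.23, limma adjusted p = 8.38e-07), and 0.50 higher on the log2 scale in the cold (0.02 to 0.97, limma adjusted p = 0.0540). Its exons share 918 bases with an antisense transcript, 4732471J01Rik, whose group means were 1.70 to 5.94 normalized reads.

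MGLL (monoglyceride lipase) frees the last fatty acid and also clears the endocannabinoid 2-arachidonoylglycerol. Mgll (chr6:88724412-88828360, plus strand) rose in the cold in DPP4+ cells, from 856, 993, 1135, 1021 and 1064 normalized reads to 1366, 1427, 1457, 1520 and 2152. The groups did not overlap, and the log2 difference was 0.63 (SE 0.11, limma adjusted p = 3.89e-05). Without cold replicate 5, the highest, it was 0.51 (limma adjusted p = 2.97e-05). DPP4- cells had 186, 227, 176, 220 and 207 at 22 °C and 288, 260, 232, 230 and 230 in the cold, also with no overlap, and a difference of 0.29 (95% interval 0.07 to 0.51) that missed the threshold (limma adjusted p = 0.117). The test of the difference between the effects gave 0.34 (0.03 to 0.65, limma adjusted p = 0.0840). Mgll was 4.99-fold higher in DPP4+ than DPP4- cells at 22 °C (log2 difference 2.31, SE 0.11, limma adjusted p = 5.93e-15) and 6.39-fold higher at 6 °C (2.66, limma adjusted p = 4.28e-16). The antisense gene Gm26588 shares 167 exon bases with Mgll and was not used here.

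DGAT1 and DGAT2 catalyse the same last step of triglyceride synthesis and are unrelated in sequence. Dgat1 (chr15:76502015-76511953, minus strand) had 297, 271, 283, 280 and 280 normalized reads in DPP4+ cells at 22 °C and 316, 251, 277, 264 and 283 in DPP4- cells. In the cold the DPP4+ libraries had 2498, 2090, 2116, 2297 and 1395, and the DPP4- libraries 353, 322, 296, 250 and 226. All 5 cold DPP4+ libraries lay above the other 15, which ranged from 226 to 353. The log2 difference of cold against 22 °C was 2.85 in DPP4+ cells (SE 0.12, limma adjusted p = 6.39e-14) and 0.04 in DPP4- cells (95% interval -0.22 to 0.30, limma adjusted p = 0.882), and the effects differed by 2.81 (SE 0.18, limma adjusted p = 9.26e-11). At 22 °C the populations differed by 0.02 on the log2 scale (-0.24 to 0.28, limma adjusted p = 0.867), and at 6 °C Dgat1 was 7.19-fold higher in DPP4+ cells (2.83, SE 0.12, limma adjusted p = 7.12e-15). Dgat1 ends 101 bases from the facing gene Hsf1, shares no exon base with it, and Hsf1 had means of 413, 458, 586 and 601 in the 4 groups in the order used above.

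Dgat2 (chr7:99153658-99182719, minus strand) was called in the cold in DPP4- cells, where Dgat1 was not. The DPP4- libraries had 67.5, 101, 89.4, 84.4 and 78.4 normalized reads at 22 °C and 99.2, 106, 154, 164 and 142 in the cold, with cold replicate 1 inside the range of 22 °C. Dgat2 rose in DPP4- cells by 0.64 on the log2 scale (SE 0.14, limma adjusted p = 0.0107). DPP4+ cells had 118, 110, 109, 87.1 and 97.4 at 22 °C and 143, 137, 141, 132 and 94.98 in the cold, a log2 difference of 0.30 (95% interval 0.01 to 0.60, limma adjusted p = 0.0889). That difference passed the threshold without cold replicate 5, the lowest (0.41, limma adjusted p = 0.0181), with quantile scaling (adjusted p = 0.0099, limma) and with the DPP4+ libraries fitted alone (adjusted p = 0.0472, limma). The effects differed by -0.34 (-0.76 to 0.09, limma adjusted p = 0.218). Per kb of exon, the ratio of Dgat1 to Dgat2 was 2.76 ± 0.315 in DPP4+ cells at 22 °C and 16.1 ± 1.35 in the cold (SD, n = 5), with ranges of 2.49 to 3.24 and 14.8 to 17.6. In DPP4- cells the ratio was 3.43 ± 0.824 at 22 °C and 2.35 ± 0.920 in the cold, and the ranges overlapped.

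DPP4+ replicate 5 of the cold lay at an end of its group in all 10 genes, though its gap to the next library passed Dixon's test for 2 of them, Mgll and Dgat2. It was the lowest of the 5 for Plin1, Plin2, Plin4, Cidec, Pnpla2, Lipe, Dgat1 and Dgat2 and the highest for Plin3 and Mgll. Without it the cold comparison in DPP4+ cells called 5 of 10 genes in place of 4, the added gene being Dgat2. Of all genes that comparison then called 3110 higher and 3055 lower, against 3069 and 2954 with all libraries. Without that library the Dgat1 difference was 2.99 (limma adjusted p = 5.94e-17).

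Set in order of reads per kb of exon, the genes with the highest level differed between the 4 groups. In DPP4+ cells at 22 °C the order began with Plin3 at 211 ± 15.2 and Mgll at 200 ± 20.4 normalized reads per kb, which differed by less than their spread, then Pnpla2 at 164, Plin2 at 127, Dgat1 at 92.3 and Plin1 at 73.6. In DPP4+ cells in the cold Dgat1 led at 680 ± 136, followed by Mgll at 312 ± 63.5 and by Pnpla2, Plin3 and Plin2 at 127, 126 and 113. In DPP4- cells at 22 °C Plin2 at 739 ± 74.5 and Plin4 at 519 ± 113 led, and Plin3 came next at 154. The same pair led in DPP4- cells in the cold, at 717 ± 159 and 663 ± 146, with overlapping spread. Cidec was last in 3 groups, and Lipe, at 12.5, in DPP4- cells in the cold.

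Between the populations at 22 °C, 7 of 10 genes were called, 5 higher and 2 lower in DPP4+ cells, beside 74.9% of all genes tested (38.7% higher and 36.2% lower). At 6 °C 6 of 10 were called, 3 higher and 3 lower, beside 74.2% of all genes (38.5% and 35.7%). With library totals set equal in place of the deposited scaling, the split was 7 higher and 2 lower at 22 °C, beside 9107 and 2039 of all genes, and 6 higher and 3 lower at 6 °C, beside 8240 and 2461. Plin2 and Plin4 were lower and Mgll and Pnpla2 higher in DPP4+ cells at both temperatures. Plin1, Plin3 and Lipe were called at 22 °C and not at 6 °C, and Dgat1 and Cidec at 6 °C and not at 22 °C. Some of these absences rested on the scaling: with equal totals Lipe (limma adjusted p = 0.000732) and Plin3 (limma adjusted p = 5.66e-06) were called at 6 °C and Dgat1 (limma adjusted p = 0.000204) at 22 °C. Lipe at 6 °C was also called with TMM factors (limma adjusted p = 0.0352) and without DPP4- cold replicate 3, 4 or 5 or DPP4+ cold replicate 5. For each of these 5 genes the difference of the cold effects, which is the same contrast as the difference between the 2 population gaps and uses the same 20 libraries, was called. The groups of 5 did not overlap for 7 of 10 genes at 22 °C, beside 64.8% of all genes, and for 5 of 10 at 6 °C, beside 57.1%.

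**Figure D4:**
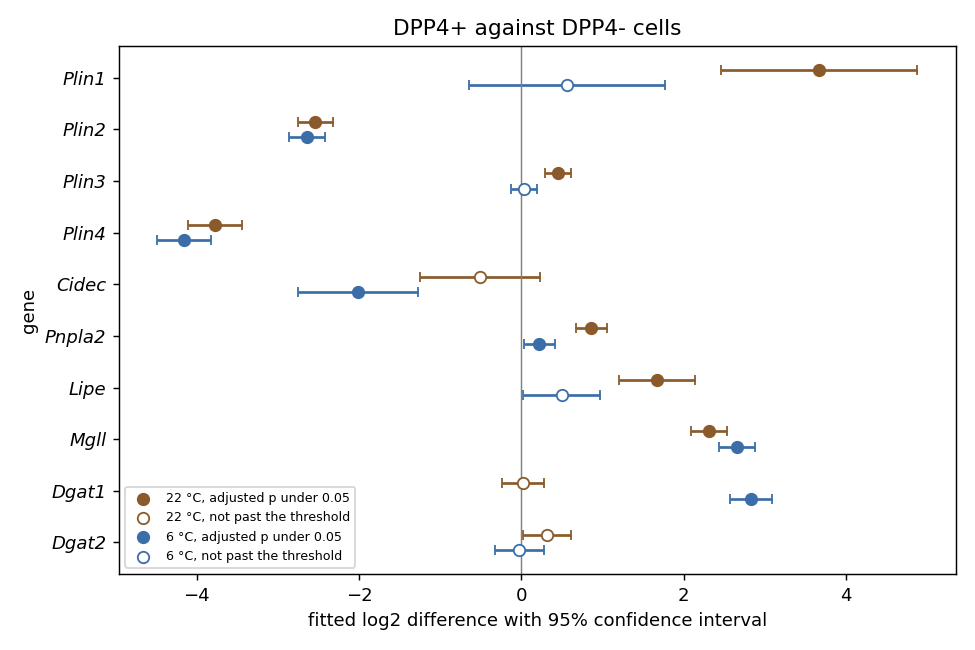
Log2 difference of DPP4+ against DPP4- cells (horizontal axis, log2(value + 1) scale) for the 10 genes at 22 °C and at 6 °C, with 95% intervals from limma, 5 libraries a group, and filled points where called. Plin4 lies lowest at both temperatures, at -3.78 and -4.16, and Dgat1 moves from 0.02 to 2.83.

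Of 24 other genes of triglyceride synthesis, 20 were tested. In the cold in DPP4+ cells 8 rose and 3 fell, beside 23.5% and 22.6% of all genes (median log2 difference 0.17). In DPP4- cells limma called 0 of the 20 (median -0.04), beside 5.22% of all genes. There 3 were higher and 2 lower at an unadjusted p below 0.05, and edgeR called 1 and DESeq2 2. Of all genes, edgeR called 225 higher and 390 lower there, and DESeq2 323 and 580. The cold effects differed for 10 of 20, 7 higher and 3 lower in DPP4+ cells, beside 16.8% and 16.4% of all genes. Acsl4, which joins coenzyme A to arachidonate and other long fatty acids, rose from 1688 ± 188 to 7146 ± 1212 normalized reads in DPP4+ cells (4.23-fold, SD, n = 5, limma adjusted p = 5.99e-13). In DPP4- cells it had 1925 ± 73.1 and 1724 ± 240 (limma adjusted p = 0.395), and the effects differed by 2.24 (limma adjusted p = 2.18e-10). Gk, glycerol kinase, rose 2.02-fold in DPP4+ cells, from 93.1 to 188 (limma adjusted p = 2.73e-07). Gpam, which adds the first fatty acid to glycerol phosphate at mitochondria, fell from 1004 ± 75.7 to 508 ± 97.6 (limma adjusted p = 1.89e-06), and the lipid phosphatase gene Plpp1 fell from 677 to 353 (limma adjusted p = 3.26e-09). At 22 °C Gpam was 3.82-fold above its DPP4- level in DPP4+ cells. In that comparison 5 of 20 were higher and 10 lower, beside 38.7% and 36.2% of all genes. At 6 °C 9 were higher and 9 lower, beside 38.5% and 35.7%.

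Of 17 other genes of lipid breakdown, lipase partners included, 12 were tested. In the cold in DPP4+ cells 1 rose and 7 fell, beside 23.5% and 22.6% of all genes (median log2 difference -0.28). In DPP4- cells limma, edgeR and DESeq2 called 0 of the 12 (median 0.07), beside 5.22% of all genes by limma. There 2 were higher at an unadjusted p below 0.05 by limma. The 1 that rose was Abhd5, the protein that activates PNPLA2 once PLIN1 lets it go, from 914 ± 86.1 to 2021 ± 163 normalized reads (2.21-fold, SD, n = 5, limma adjusted p = 6.84e-12). In DPP4- cells Abhd5 had 1220 ± 105 and 1192 ± 83.0, and the effects differed by 1.18 (limma adjusted p = 5.68e-09). Prkar2b, a regulatory subunit of the cyclic AMP-dependent kinase, fell 3.68-fold in DPP4+ cells, from 509 ± 56.7 to 138 ± 28.5 (limma adjusted p = 1.9e-07), and Pnpla3, a relative of Pnpla2, 3.40-fold, from 52.9 to 15.6 (limma adjusted p = 8.28e-07). G0s2, which encodes an inhibitor of PNPLA2, had 0 reads in 20 libraries, which allows up to 3 reads over all of them. The monoglyceride that MGLL cleaves can come from diacylglycerol lipases. DPP4+ cells had 2.61-fold more Daglb than DPP4- cells at 22 °C (517 against 198, limma adjusted p = 3.04e-10), and a link to Mgll was not tested. In that comparison 6 of 12 were higher and 2 lower, beside 38.7% and 36.2% of all genes. At 6 °C 5 were higher and 6 lower, beside 38.5% and 35.7%.

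Among the other genes of the droplet coat and of droplet assembly, 13 of the 18 in the table were tested. In the cold in DPP4+ cells 3 rose and 4 fell, beside 23.5% and 22.6% of all genes (median log2 difference -0.02). Fitm2, needed for droplets to bud from the endoplasmic reticulum, rose 1.86-fold there, from 104 to 193 normalized reads (limma adjusted p = 1.61e-07). Mettl7a1, a droplet protein, fell 2.68-fold, from 653 to 243 (limma adjusted p = 2.63e-11), and the caveolin gene Cav1 2.08-fold, from 2086 to 1001 (limma adjusted p = 2.37e-11). Cav1 was the 1 gene of the 13 called in the cold in DPP4- cells, beside 5.22% of all genes. It fell there by 0.27 on the log2 scale, from 5371 to 4459 (limma adjusted p = 0.029). Hilpda, an inhibitor of PNPLA2 induced by low oxygen and fatty acids, was 3.83-fold lower in DPP4+ than in DPP4- cells at 22 °C (76.6 against 293, limma adjusted p = 7.64e-13). In that comparison 8 of 13 were lower and 4 higher in DPP4+ cells, beside 36.2% and 38.7% of all genes. At 6 °C 7 were lower and 2 higher, beside 35.7% and 38.5%. Plin5, the perilipin of oxidative tissues, had 59 reads over all libraries and at most 8.10 normalized reads in 1 library, and it was not tested.

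**Figure D5:**
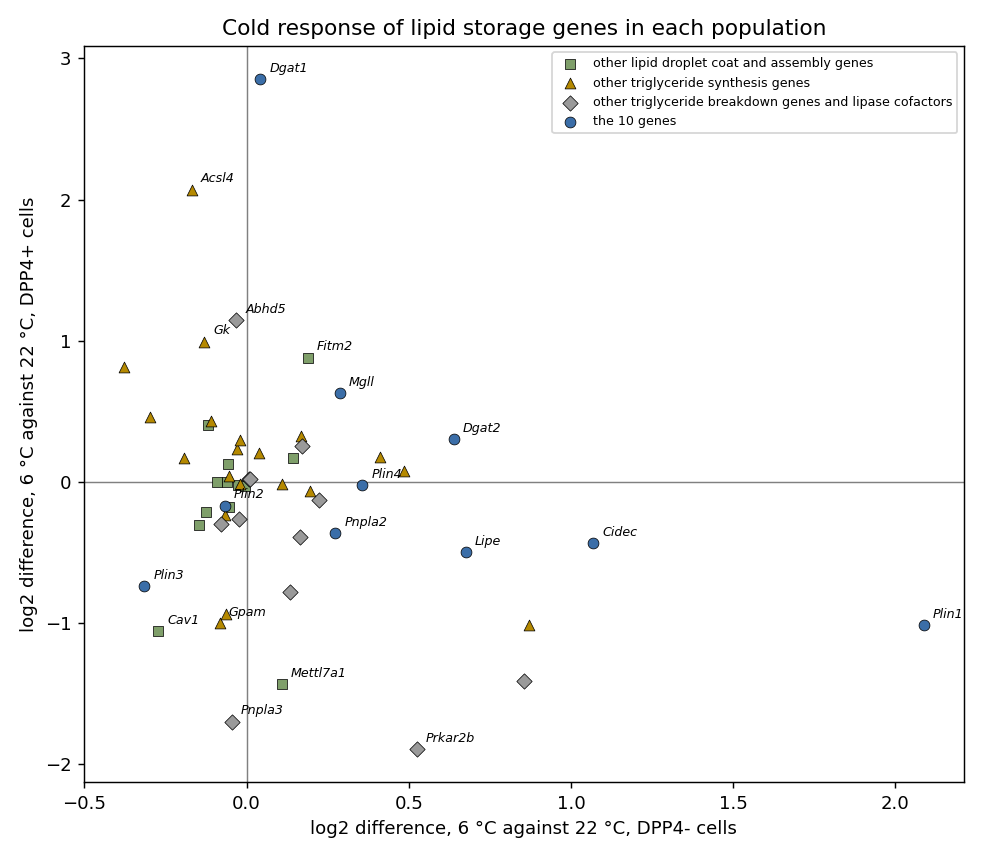
Log2 difference of cold against 22 °C in DPP4- cells (horizontal axis) and in DPP4+ cells (vertical axis) for the 10 genes and the other tested genes of the 3 lists, 1 point a gene, on the log2(value + 1) scale. Dgat1 (2.85), Acsl4 (2.07) and Abhd5 (1.15) lie high on the vertical axis and near 0 on the horizontal, and Plin1 lies low on the vertical and far right.

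Markers of other cells that the gate could hold also differed between the groups, and within a list they did not all point 1 way. The 10 pericyte and smooth muscle markers summed to 9488 to 12380 normalized reads in DPP4+ libraries at 22 °C and to 4392 to 7454 in the cold, and to 4197 to 5679 and 5085 to 6917 in DPP4- libraries. Acta2 and Tagln, contractile genes, made up most of the DPP4+ sum at 22 °C, with means of 6046 and 3700 normalized reads against 45.6 and 74.9 in DPP4- cells. Abcc9 and Notch3, pericyte genes, had 222 and 239 against 2558 and 1594, and at 22 °C DPP4+ cells had 4 of the 10 markers higher and 6 lower (median log2 difference -0.75). The 10 endothelial markers summed to 2686 to 3400 and 2848 to 4323 in DPP4+ libraries and to 1070 to 1500 and 929 to 1479 in DPP4- libraries. The receptor gene Tek alone had a mean of 2811 of this in DPP4+ cells at 22 °C, against 888 in DPP4- cells. Pecam1 and Cdh5, which mark the junctions of endothelial cells, had 23.7 and 20.6 against 73.6 and 69.8, and of the 9 endothelial markers tested 1 was higher and 4 lower in DPP4+ cells (median -1.61). Of all genes tested, 38.7% were called higher and 36.2% lower in DPP4+ than DPP4- cells at 22 °C. Of the 12 progenitor markers, 4 fell in the cold in DPP4+ cells, beside 22.6% of all genes. The part of these cells in the differences of the 10 genes was not tested.

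The genes with the most similar profile to Plin1 and Plin2 were found by the root mean square distance between centred log2(value + 1) profiles over the 20 libraries. Nearest to Plin2 was the amino acid transporter gene Slc7a8, at a distance of 0.17, followed by Hdx, Apobec1, Xaf1 and Ank2 at 0.20 to 0.21, where the profile of Plin2 itself has a root mean square of 1.31. Slc7a8 had group means of 140 and 115 normalized reads in DPP4+ cells at 22 and 6 °C and of 820 and 709 in DPP4- cells. Plin1 had no neighbour as close: Fabp5, a fatty acid binding protein gene, lay at 0.68, followed by Chac1, Lrg1, Zfp688 and Mtss1 at 0.75 to 0.85, with 1.58 for Plin1 itself. Fabp5 had means of 55.5 and 35.0 in DPP4+ cells and of 9.83 and 18.8 in DPP4- cells. The distance also counts the spread within groups. In DPP4- cells at 22 and 6 °C the log2 SD was 1.63 and 0.85 for Plin1, and 0.14 and 0.32 for Plin2.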

How the data were processed

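RNA-seq signal was deposited by the authors for 20 libraries of 4 groups, as gene counts scaled by 1 factor per library, that is, normalized counts. The submitters' processing notes name Trim Galore 0.4.1, HISAT2 2.0.1, featureCounts 1.4.6, DESeq2 1.6.3 and the builds GRCm38 and mm10, with no role. The annotation and the strand of counting are not given in the sources used here. In each library a single step divides 100% of the values into whole numbers (to within 0.1 read, at most 0.00054 off), and these were used as whole reads. Of the 27179 genes, 958 had no symbol (0.0610 to 0.0824% of a library's reads), and 26 symbols turned into dates were restored by gene ID.

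All genes averaging 10 or more normalized reads were fitted with limma 3.58.1 in R 4.3.3 on log2(value + 1), with 4 group means, 16 residual degrees of freedom, and a trend and robust estimation of the variance. The pseudocount of 1 makes log2 differences of low genes too small. Two-sided p-values received the Benjamini-Hochberg adjustment over 13057 genes within each of 5 contrasts, with a threshold of 0.05. Folds are ratios of group means. The procedure was tested on simulated counts with the same spread setting for all genes and groups. That test does not cover a gene whose spread differs between groups, such as Plin1. Alternatives were DESeq2 1.42.0 and, with its quasi-likelihood test, edgeR 4.0.16 on whole reads, other pseudocounts, filters and scalings, each contrast fitted alone, a replicate block and each library left out. Levels per kb used merged exon lengths of the GENCODE vM21 annotation on GRCm38, which also gave coordinates. Floors of 3 reads cover counting error only.

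The 10 genes, the 3 pathway lists and the marker lists were chosen with earlier results of these data known. Named besides the 10 were up to 4 genes of each pathway list with the smallest p for the difference of the cold effects and up to 3 for each population contrast, the 5 nearest profiles of Plin1 and Plin2, defining markers by their levels, and the sort markers.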

Additional observations from a re-analysis of the deposited data

Results flagged for a closer look

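Within groups of 5 libraries, 4 of 44 combinations (the 10 genes and the summed adipocyte markers in 4 groups) held a library whose gap to its nearest neighbour was a large part of the group's range (Dixon's test), where chance flags about 1 in 20. Cidec reached 12.4 normalized reads in DPP4+ replicate 5 at 22 °C, with the next library at 7.52. Pnpla2 stood at 550 in DPP4+ replicate 1 at 22 °C, with the next at 487. DPP4+ cold replicate 5 was apart for Mgll at 2152, with the next at 1520, and for Dgat2 at 94.98, with the next at 132.

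For 6 genes the cold effect differed between the populations by the test of the difference itself. The log2 difference of the effects, DPP4+ minus DPP4-, was -3.10 for Plin1, -0.42 for Plin3, -1.50 for Cidec, -0.64 for Pnpla2, -1.17 for Lipe and 2.81 for Dgat1. Plin3 fell in both populations, and Dgat1 was called in DPP4+ cells, where the limma estimate in DPP4- cells was 0.04.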

How the results depend on the processing

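Over the 10 genes and 5 contrasts, the alternatives other than leaving out a library gave 579 values on the same side of the threshold and in the same direction, 23 newly called, 7 no longer called and 6 of the other sign. In DPP4- cells the cold comparison called 3 genes, 5 with DESeq2, 6 with library totals set equal and 1 with the groups of the contrast fitted alone. Of all genes it called 259 higher and 422 lower, and in those settings, in that order, 323 and 580, 915 and 227, and 102 and 290. In DPP4+ cells the cold comparison called 4, and 8 with those groups fitted alone. Of all genes it called 3069 higher and 2954 lower, and 3473 and 3422 with those groups fitted alone. With each library left out the counts were 1 to 5 in DPP4- cells, 4 to 5 in DPP4+ cells, 5 to 7 for the difference, 7 to 8 between populations at 22 °C and 5 to 7 at 6 °C. The Plin1 call in DPP4- cells was also lost with no filter (adjusted p = 0.0800, limma), with quantile scaling (0.0509) and with those groups alone (0.242), and the Plin3 call there with equal totals (0.0982) and with those groups alone (0.0551).

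Setting library totals equal moved the median of all genes between the populations from 0.03 to 0.64 at 22 °C (9107 higher and 2039 lower, against 5052 and 4730) and from 0.03 to 0.50 at 6 °C (8240 and 2461, against 5031 and 4662). It moved the cold comparison in DPP4- cells to 915 higher and 227 lower, against 259 and 422, and the difference of the effects to 1128 and 3060, against 2192 and 2137. With it the sign changed for Cidec at 22 °C (0.04), Dgat2 between populations at 6 °C (0.44) and Plin2 in the cold in DPP4- cells (0.0309). The sign also changed for Dgat2 at 6 °C with TMM (0.0308), and with quantile scaling for Dgat1 at 22 °C (-0.0532) and Plin4 in the cold in DPP4+ cells (0.0099). Of these 6, the first scaling called Dgat2 (limma adjusted p = 0.0122), and the cause was not tested.

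With single libraries left out, values near 0 changed sign for Dgat1 in the cold in DPP4- cells (-0.0334 to 0.126), Dgat1 at 22 °C (-0.0121 to 0.0711), Dgat2 at 6 °C (-0.122 to 0.0831), Plin2 in the cold in DPP4- cells (-0.162 to 0.0181), Plin3 at 6 °C (-0.0129 to 0.0678) and Plin4 in the cold in DPP4+ cells (-0.0732 to 0.0863). Same-numbered libraries of the 2 populations did not deviate together in every pair (r from 0.0166 to 0.156 in 10 pairs, 4 over 0.1, and 6 of 10 closest to their own number), so the numbers were not taken as pairing. With a replicate block the counts were 4 and 3 in the cold in DPP4+ and DPP4- cells, 6 for the difference, and 7 and 6 between populations. Depth limits Cidec and, in DPP4- cells, Plin1, which rested on 2 to 39 reads a library at 22 °C. Cidec was not tested with a minimum mean of 50.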

Other observations

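The genes nearest to Dgat1 by the same profile distance, a search added after its values were seen, were Tuba4a at 0.17, Clcf1 at 0.27, Crem and Tmem41a at 0.29 and Htra4 at 0.31, where Dgat1 itself has a root mean square of 1.25 over the 20 libraries. Crem, which encodes a cyclic AMP responsive modulator of transcription, had group means of 150 and 1404 normalized reads in DPP4+ cells at 22 and 6 °C and of 155 and 149 in DPP4- cells. Tuba4a, a tubulin gene, had 109 and 653 in DPP4+ cells and 104 and 101 in DPP4- cells. The cytokine gene Clcf1 had 23.8 and 161 in DPP4+ cells and 18.0 and 18.9 in DPP4- cells.

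Per kb of exon, the ratio of Mgll to Lipe was 8.76 ± 2.04 in DPP4+ cells at 22 °C and 20.1 ± 9.30 in the cold (SD, n = 5), with ranges of 6.07 to 11.2 and 12.8 to 36.3. In DPP4- cells it was 5.62 ± 1.12 and 4.87 ± 3.25.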
